A study of Homo sapiens with 6 samples.

Results

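A set of 10 genes that encode ligands, receptors and a latency protein of the transforming growth factor-β (TGF-β) and activin system were examined in the colon cancer cell line HCT-116, and they were TGFB1, TGFB2, LTBP1, TGFBR1, ACVR1, ACVR1B, TGFBR2, ACVR2A, ACVR2B and TGFBR3. Each gene was found by its symbol in the deposited expression table, where the 10 genes held 10 of 27918 rows. Poly(A) RNA was sequenced from 6 libraries of HCT-116 cells, 3 transfected with a control GapmeR (GapNC) and 3 with a GapmeR against the long noncoding RNA CASC9 (GapC9), and the comparison asked how gene expression differs after CASC9 is targeted. A GapmeR is an antisense oligonucleotide with locked ends and a DNA center that directs RNase H to the paired RNA. Both groups received the oligonucleotide at 10 nM with a lipid reagent, and the study's text gives harvest both at 24 h and at 48 h after transfection. No untransfected library was part of the comparison, so both groups share the transfection itself, and 1 cell line and 1 GapmeR against CASC9 were used.

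TGF-β ligands are secreted in a latent complex, in which the propeptide stays bound to the ligand and a latent TGF-β binding protein such as LTBP1 anchors the complex in the matrix. Once released, a ligand dimer binds a type II receptor kinase, which phosphorylates a type I receptor, and the type I receptor phosphorylates SMAD proteins that enter the nucleus and regulate target genes. The TGF-β receptors are TGFBR2 and TGFBR1 with the co-receptor TGFBR3, activins signal through ACVR2A or ACVR2B with ACVR1B, and in colon tumors with mismatch repair deficiency, the kind from which HCT-116 derives, runs of A in the coding sequences of TGFBR2 and ACVR2A are known sites of frameshift mutation.

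The reference coding sequences of those genes show these runs. In the GENCODE 29 annotation of GRCh38, 3 of the 10 genes held a coding run of at least 8 A, against 4.09% of 19922 genes. The longest run of TGFBR2 had 10 A, a length reached by 0.326% of genes. The runs are shown in capitals with 10 bases on each side, on the coding strand of the longest coding transcript, in reference sequence only. The expression table does not show which alleles the cells carry.
TGFBR2, run from coding base 449: attatgaaggAAAAAAAAAAgcctggtgag
ACVR2A, run from coding base 278: gattgtgtagAAAAAAAAgacagccctg
ACVR2A, run from coding base 1303: tgttgtgcatAAAAAAAAgaggcctgtt
TGFB2, run from coding base 898: gtccactaggAAAAAAAAcagtgggaag

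The upstream sequences of 3 genes whose libraries separated between the groups are shown so that the short motifs they hold can be read beside their values. They come from RefSeq (GRCh38.p14), which had a promoter window for all 10 genes, and cover the 250 bases before the annotated start or the part of them outside the annotated gene. The 6 motifs searched on both strands were the AP-1 site TGANTCA, the cyclic AMP response element TGACGTCA, the palindromic SMAD element GTCTAGAC, the E-box CACGTG, the GC box GGGCGG and the TATA box TATAAA. Among 35116 promoters of the same length these were present in 6.57%, 1.65%, 0.182%, 6.34%, 42.6% and 10.7%, in the same order. The TGFB2 window, at chr1:218345086-218345335 on the plus strand, held an E-box and a TATA box whose first bases lay 49 and 29 bases before the start. The LTBP1 window, at chr2:32946703-32946952 on the plus strand, held a cyclic AMP response element 94 bases before the start. The ACVR2B sequence, at chr3:38453640-38453850 on the plus strand, held GC boxes, read there mostly from the opposite strand as CCGCCC, and its last capital is the first base of another. Capitals mark these motifs, and a match is a description of the letters only.
TGFB2: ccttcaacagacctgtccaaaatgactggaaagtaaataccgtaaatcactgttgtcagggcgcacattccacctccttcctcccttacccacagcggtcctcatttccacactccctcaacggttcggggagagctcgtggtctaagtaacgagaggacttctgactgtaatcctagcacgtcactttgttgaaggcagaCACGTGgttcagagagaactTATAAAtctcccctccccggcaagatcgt
LTBP1: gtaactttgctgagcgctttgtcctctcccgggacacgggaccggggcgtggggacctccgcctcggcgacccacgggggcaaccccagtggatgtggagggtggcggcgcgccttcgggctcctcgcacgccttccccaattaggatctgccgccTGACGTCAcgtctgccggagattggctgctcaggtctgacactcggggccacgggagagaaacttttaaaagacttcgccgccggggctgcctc
ACVR2B: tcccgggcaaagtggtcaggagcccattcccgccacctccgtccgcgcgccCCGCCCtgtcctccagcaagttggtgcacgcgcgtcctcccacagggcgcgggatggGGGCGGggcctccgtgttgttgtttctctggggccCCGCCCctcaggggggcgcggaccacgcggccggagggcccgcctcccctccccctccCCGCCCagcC
The 250-base window of ACVR2A, which moved in the same direction as ACVR2B, held none of the 6 motifs. All 250 bases of that window lie inside the GENCODE gene, however, as do those of TGFBR1 and TGFBR3. The TGFB2 window ends at base 218345335, before the GENCODE start of the gene at 218346235. With these windows counted, none of the 10 genes held the SMAD element or the AP-1 site in these letters. Windows of genes whose groups overlapped held motifs too. TGFB1 had 6 GC boxes, ACVR1B had 3 GC boxes and an E-box, and ACVR1 and TGFBR3 had 2 GC boxes each. TGFBR1 and TGFBR2 held none of the 6 motifs.

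The table gives FPKM, fragments per kilobase of transcript and per mega (M) of mapped fragments, so values can be compared between genes on a per-length scale but carry no counting error. If the commonest step between low values is 1 fragment, the libraries hold about 22.7 to 24.4 M fragments, and 1 fragment on 1 kb is worth 0.0410 to 0.0440 FPKM. The targeted RNA, CASC9, had 0, 0.0108 and 0 FPKM in GapNC replicates 1 to 3, against 0.0528, 0.107 and 0 FPKM in the libraries labelled GapC9. The target was therefore not lower in the libraries labelled GapC9, its level was close to that of single fragments, and every direction below rests on the library labels. Of 8 epithelial markers 7 had a mean of at least 1 FPKM, with summed levels of 1034 to 1436 FPKM in GapNC and 1025 to 1287 FPKM in the libraries labelled GapC9. The exception was VIL1. Fibroblast markers summed to 7.44 to 8.99 and 8.09 to 9.29 FPKM. Of these 8 markers 3 had a mean of at least 1 FPKM, PDGFRA (3.62), COL3A1 (3.47) and COL1A1 (1.21), and DCN and LUM had no row. Leukocyte markers summed to 50.5 to 55.9 and 50.1 to 53.6 FPKM, nearly all of it CD68, with PTPRC at 0.000856 FPKM. The 5 endothelial markers summed to at most 0.119 FPKM in every library. Across genes, the deviation of a library from the mean of all 6 rose with GC content in GapNC replicate 1 (Spearman 0.618) and fell with it in GapC9 replicates 2 and 3 (−0.339 and −0.384), while the other libraries lay between −0.101 and 0.0216.

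TGFB1 was the most abundant of the 10 genes and TGFB2 the least (mean over the 6 libraries 16.2 and 0.214 FPKM). Between them, ACVR1B (5.81 FPKM), TGFBR2 (5.58), TGFBR1 (3.80), ACVR1 (2.61), ACVR2A (1.99), ACVR2B (1.62), TGFBR3 (1.41) and LTBP1 (1.13) followed in that order of mean FPKM. The libraries' ranges did not overlap between TGFB1 and ACVR1B or between LTBP1 and TGFB2, and they overlapped for all other neighbours in the order. Among the 16028 genes and loci tested, TGFB1 stood at percentile 87.7 of mean level and TGFB2 at percentile 13.2.

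**Figure D1:**
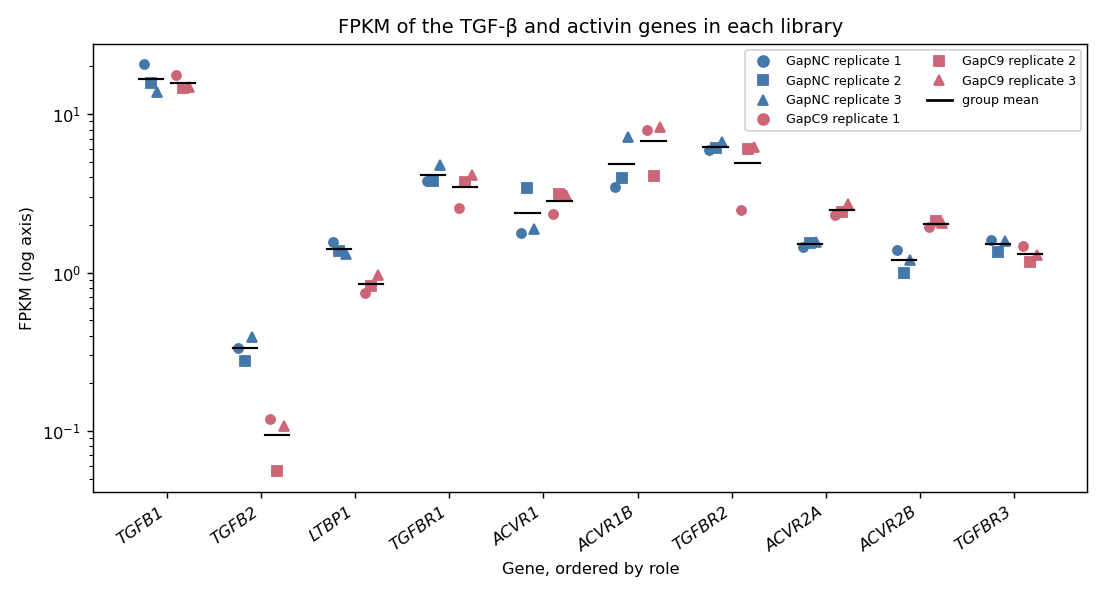
FPKM of the 10 genes (log axis) in each of the 6 libraries, with GapNC in blue, GapC9 in red, replicates by symbol and group means as black lines. The 3 GapC9 libraries lie below all GapNC libraries for TGFB2 and LTBP1 and above them for ACVR2A and ACVR2B, while 1 GapC9 library of TGFBR2, at 2.47 FPKM, lies apart from the other 5.

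With the libraries labelled GapC9 compared with GapNC, TGFB2 was lower and the activin type II receptors ACVR2A and ACVR2B were higher. TGFB2 fell 3.55-fold in mean FPKM, ACVR2A rose 1.63-fold and ACVR2B rose 1.71-fold, and these were the 3 of 10 genes past an adjusted p of 0.05 in limma. Rows were tested if their mean over all 6 libraries was at least 0.1 FPKM. TGFB2, with a GapC9 mean of 0.0940 FPKM, met this filter only through its GapNC values. Without the filter its limma adjusted p was 0.0797. LTBP1 was lower in all 3 libraries but missed the threshold, and the other 6 genes had overlapping groups. Of all 16028 genes and loci tested, 6.99% passed this threshold, 1.89% higher and 5.1% lower. With any single library left out none of the 10 genes passed it, except ACVR2B without GapNC replicate 1. In the same fits the share of all genes and loci that passed was 0.212% to 0.656%, and 5.09% without GapNC replicate 1. A second call rule asked for mean FPKM to change by a factor of 2 or more together with an unadjusted p under 0.05, and by it TGFB2 was the 1 gene of 10 called, in the lower direction, against 6.42% of all tested (2.1% higher and 4.32% lower). The groups did not overlap for 4 of the 10 genes, against 34.2% of all tested. Of these, 2 were higher and 2 lower, where 12.6% and 21.6% of all tested were. An unadjusted p under 0.05 was reached by the same 4 genes and by 25.9% of all tested, and the median log2 fold change of the 10 genes was −0.14, against −0.076 over all tested. In bulk RNA, fewer cells expressing a gene and less of its RNA per cell cannot be told apart. No source says that the replicates were separate cultures, so the p-values measure the spread between these libraries, which may be technical.

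**Figure D2:**
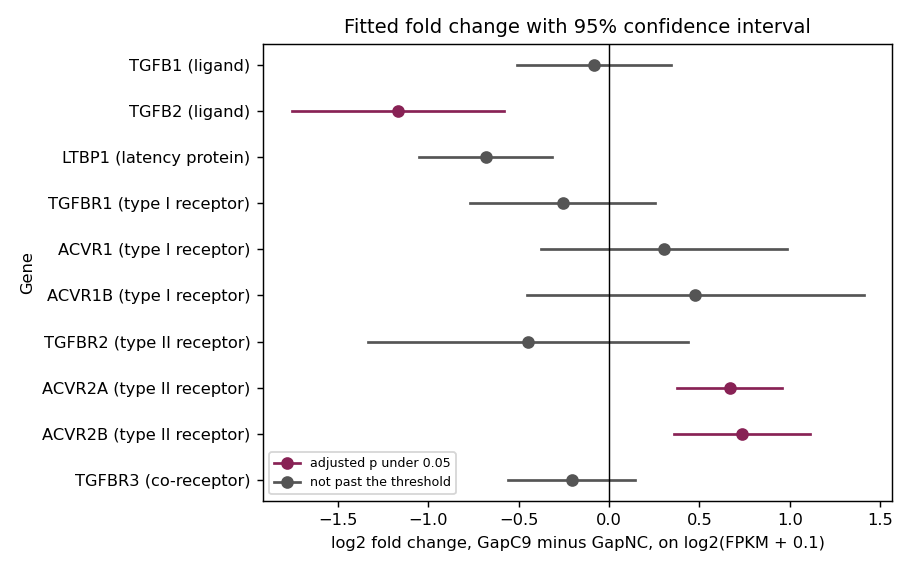
Log2 fold change of the 10 genes (GapC9 minus GapNC, x axis, on log2(FPKM + 0.1)) with its 95% confidence interval from limma, genes ordered by role. The intervals of TGFB2, LTBP1, ACVR2A and ACVR2B exclude 0, and TGFB2, ACVR2A and ACVR2B (purple) also passed the adjusted threshold.

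Of the ligands, TGFB2 separated the groups and TGFB1 did not. TGFB2 (ENSG00000092969, chr1:218346235-218444619, plus strand) encodes the TGF-β2 ligand. Its FPKM was 0.333, 0.277 and 0.392 in GapNC and 0.119, 0.0555 and 0.107 in the libraries labelled GapC9. All 3 GapC9 values lay below the lowest GapNC value. The mean was 0.334 ± 0.0578 FPKM (SD, n = 3) in GapNC and 0.0940 ± 0.0339 FPKM in GapC9, and the fitted log2 fold change was −1.17 (SE 0.24, 95% interval −1.76 to −0.58, limma adjusted p = 0.0454). The level was low: on its longest listed transcript, these FPKM correspond to about 32.7 to 48.3 fragments per GapNC library and 6.78 to 13.9 per GapC9 library, if the depth above holds. Because 0.1 FPKM is added before the logarithm, the fitted value is smaller than the ratio of means gives, and it was −0.29 with 1 FPKM added and −1.77 with 0.01 added. The adjusted p without any single library was 0.0908 to 0.139, so the call rests on having all 6 libraries.

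TGFB1 (ENSG00000105329, chr19:41301587-41353911, minus strand) encodes TGF-β1, the more abundant ligand of the pair. Its FPKM was 20.6, 15.8 and 13.9 in GapNC and 17.6, 14.6 and 14.8 in GapC9, and the groups overlapped. The mean was 16.8 ± 3.48 FPKM (SD, n = 3) in GapNC and 15.7 ± 1.66 FPKM in GapC9, and the fitted log2 fold change was −0.083 (SE 0.17, 95% interval −0.51 to 0.34, limma adjusted p = 0.801). The sign was not stable: the value was 0.032 after median scaling, −0.033 after quantile normalization, 0.28 after a correction for GC content (limma adjusted p = 0.0391) and 0.075 without GapNC replicate 1. The longest listed TGFB1 transcript is 63.45% GC, the highest of the 10 genes, and the part of the GC trend in its value was not tested further. TGFB1 also overlaps HNRNPUL1 and CCDC97 on the opposite strand, which share a row with a mean of 22.4 FPKM, and since no source says whether strand was used in counting, their reads cannot be told apart where they overlap.

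The ratio of TGFB1 to TGFB2 was 62.0, 57.2 and 35.4 in the GapNC libraries and 147, 263 and 139 in the libraries labelled GapC9. All GapC9 ratios lay above all GapNC ratios. On log2(FPKM + 0.1) the difference of the ligands' levels was 5.27 ± 0.39 (SD, n = 3) in GapNC and 6.36 ± 0.20 in GapC9, 1.09 apart. The two-sided exact permutation test gave p = 0.1, the smallest that 3 libraries against 3 can give, and so could not reach 0.05.

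The latency protein LTBP1 (ENSG00000049323, chr2:32946972-33399509, plus strand) binds latent TGF-β and anchors it in the extracellular matrix. It was at 1.56, 1.38 and 1.31 FPKM in GapNC and at 0.746, 0.826 and 0.963 FPKM in GapC9. The groups did not overlap, with every GapC9 library below 1 FPKM. The mean was 1.41 ± 0.129 FPKM (SD, n = 3) in GapNC and 0.845 ± 0.110 FPKM in GapC9, and the fitted log2 fold change was −0.68 (SE 0.15, 95% interval −1.05 to −0.32), and its limma adjusted p of 0.0522 missed the threshold. It was 0.0498 after the GC correction and 0.0478 when loci listed at 0 in any library were left out, and it was 0.0952 to 0.166 without any single library.

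None of the type I receptors separated the groups. TGFBR1 (ENSG00000106799, chr9:99104038-99154192, plus strand), the type I receptor for TGF-β, was at 3.78, 3.81 and 4.76 FPKM in GapNC and 2.57, 3.74 and 4.13 FPKM in GapC9. Its log2 fold change was −0.26 (SE 0.21, limma adjusted p = 0.489). ACVR1 (ENSG00000115170, chr2:157736444-157875862, minus strand), a type I receptor used mainly by BMPs, was at 1.79, 3.44 and 1.89 FPKM in GapNC and 2.33, 3.13 and 3.08 FPKM in GapC9, and both its GapNC values of under 2 FPKM lay below every GapC9 value. The log2 fold change was 0.30 (SE 0.28, limma adjusted p = 0.532).

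ACVR1B (ENSG00000135503, chr12:51951667-51997078, plus strand), the type I receptor for activin, was the most variable of the 10 genes. It was at 3.44, 3.94 and 7.17 FPKM in GapNC and 7.92, 4.08 and 8.27 FPKM in GapC9, so 1 GapNC library lay near the high GapC9 values and 1 GapC9 library near the low GapNC values. Its log2 fold change was 0.48 (SE 0.38, 95% interval −0.46 to 1.41, limma adjusted p = 0.479), and its residual spread stood at percentile 81.3 of all genes tested.

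Of the type II receptors, the activin receptors rose and the TGF-β receptor did not separate the groups. ACVR2A (ENSG00000121989, chr2:147844517-147930826, plus strand) was at 1.44, 1.54 and 1.56 FPKM in GapNC and 2.31, 2.40 and 2.70 FPKM in GapC9. The groups did not overlap, and the gene had the lowest spread of the 10, at percentile 6.96 of residual spread. The mean was 1.52 ± 0.0618 FPKM (SD, n = 3) in GapNC and 2.47 ± 0.208 FPKM in GapC9, and the fitted log2 fold change was 0.67 (SE 0.12, 95% interval 0.38 to 0.96, limma adjusted p = 0.0347). ACVR2A overlaps ORC4 (mean 2.96 FPKM) on the opposite strand. As for TGFB1, reads of ACVR2A and ORC4 cannot be told apart where they overlap, since no source says whether strand was used in counting.

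ACVR2B (ENSG00000114739, chr3:38453851-38493142, plus strand) was at 1.39, 0.994 and 1.19 FPKM in GapNC and 1.93, 2.11 and 2.07 FPKM in GapC9, and its groups did not overlap. The mean was 1.19 ± 0.20 FPKM (SD, n = 3) in GapNC and 2.04 ± 0.0938 FPKM in GapC9, and the fitted log2 fold change was 0.73 (SE 0.15, 95% interval 0.36 to 1.11, limma adjusted p = 0.0469). The antisense gene ACVR2B-AS1 was listed at a mean of 0.193 FPKM. The adjusted p without any single library was 0.0574 to 0.125 for ACVR2A and 0.0427 to 0.160 for ACVR2B, which passed only without GapNC replicate 1. The CASC9 GapmeR has 3 mismatches to its best match in an ACVR2B transcript, a number reached by 2.42% of 15909 loci, and 5 to ACVR2A. Whether that match bears on the ACVR2B level was not tested.

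TGFBR2 (ENSG00000163513, chr3:30606502-30694142, plus strand), the type II receptor for TGF-β, was at 5.98, 6.08 and 6.65 FPKM in GapNC and at 2.47, 6.05 and 6.25 FPKM in GapC9. A single GapC9 library was low and the other 2 lay within the GapNC values. The log2 fold change was −0.45 (SE 0.36, 95% interval −1.33 to 0.44, limma adjusted p = 0.486), and −0.020 without GapC9 replicate 1. The co-receptor TGFBR3 (ENSG00000069702, chr1:91680343-91906335, minus strand), which presents ligand to TGFBR2, was at 1.61, 1.35 and 1.58 FPKM in GapNC and 1.46, 1.16 and 1.28 FPKM in GapC9. Its log2 fold change was −0.21 (SE 0.14, 95% interval −0.56 to 0.15, limma adjusted p = 0.418).

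**Figure D3:**
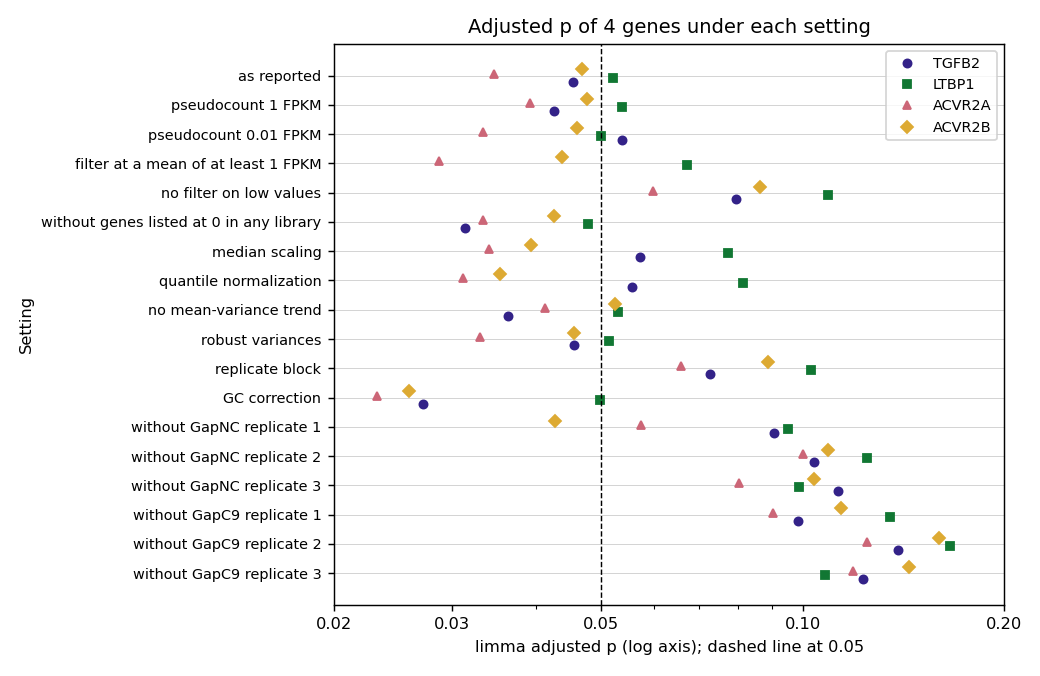
Limma adjusted p (log axis) of TGFB2, LTBP1, ACVR2A and ACVR2B in the reported fit and under each alternative, with a dashed line at 0.05. With a single library left out all 4 lie at or right of 0.0574 except ACVR2B without GapNC replicate 1 (0.0427), while the changes of pseudocount and normalization keep ACVR2A and ACVR2B left of the line.

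The genes whose level followed TGFB2 most closely over the 6 libraries, by Pearson correlation on log2(FPKM + 0.1) among 14891 loci with no 0, were EPHB2 (r = 0.997), TPST1 (0.995), EFHD2 (0.995), SYTL2 (0.993) and ST6GAL1 (0.993). With 6 points that fall into the same groups of 3 libraries, this describes these libraries only. EPHB2, an ephrin receptor kinase, was at 0.562 FPKM in GapNC and 0.292 FPKM in GapC9.

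Genes that act with these ligands and receptors were read from 5 lists, which were chosen with earlier results of these data known. Their counts are therefore a description and are not independent of these data. In total 12 of 78 genes tested passed the adjusted threshold, 8 higher and 4 lower, against 6.99% of all genes tested. With 1 library left out, CTGF passed in 6 of 6 fits, EDN1 in 3, SPTBN1 in 2, and GDF15, USP11 and PPP1R15A in 0. FSTL1, ZFYVE9, CDKN1A, SMAD7 and SKIL passed in 1 each, which was always the fit without GapNC replicate 1. In that fit 5.09% of all genes and loci passed, against 0.212% to 0.656% in the others that left out 1 library. SMAD-dependent target genes gave 6 of the 8 higher calls. Of 27 listed targets 24 were tested, 6 were past the adjusted threshold upwards and none downwards, 18 had a positive and 6 a negative log2 fold change, and their median was 0.29. Of all genes and loci tested, 1.89% passed upwards and 5.1% downwards, 6993 had a positive and 9035 a negative log2 fold change, and the median was −0.076.

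CTGF, a matricellular growth factor and the most strongly changed target, was at 9.72, 10.4 and 9.26 FPKM in GapNC and 35.1, 36.8 and 34.9 FPKM in GapC9. The mean was 9.79 ± 0.569 and 35.6 ± 1.05 FPKM (SD, n = 3). The fitted log2 fold change was 1.85 (SE 0.09, limma adjusted p = 0.00202), and CTGF stayed past the threshold in all 6 fits that left out 1 library. EDN1, which encodes the vasoconstrictor endothelin-1, rose from 1.06 ± 0.0189 to 3.03 ± 0.268 FPKM (log2 fold change 1.43, limma adjusted p = 0.0147). SMAD7 and SKIL, inhibitors induced by SMAD signaling itself, rose from 0.960 ± 0.192 to 2.15 ± 0.240 FPKM and from 0.716 ± 0.0919 to 1.58 ± 0.106 FPKM (limma adjusted p = 0.0310 and 0.0233).

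CDKN1A, the p21 inhibitor of cyclin-dependent kinases and also a p53 target, rose from 88.4 ± 6.87 to 148 ± 5.07 FPKM (log2 fold change 0.74, limma adjusted p = 0.0175). ID1, a BMP-responsive inhibitor of DNA-binding proteins, was called lower by ratio and unadjusted p, at 102, 76.2 and 82.1 FPKM in GapNC and 55.5, 16.6 and 47.1 FPKM in GapC9. It did not pass the adjusted threshold (log2 fold change −1.29, limma adjusted p = 0.151). CYR61, a matricellular relative of CTGF and among the most abundant targets, was at 50.5 ± 17.1 and 86.2 ± 2.81 FPKM (limma adjusted p = 0.126).

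**Figure D4:**
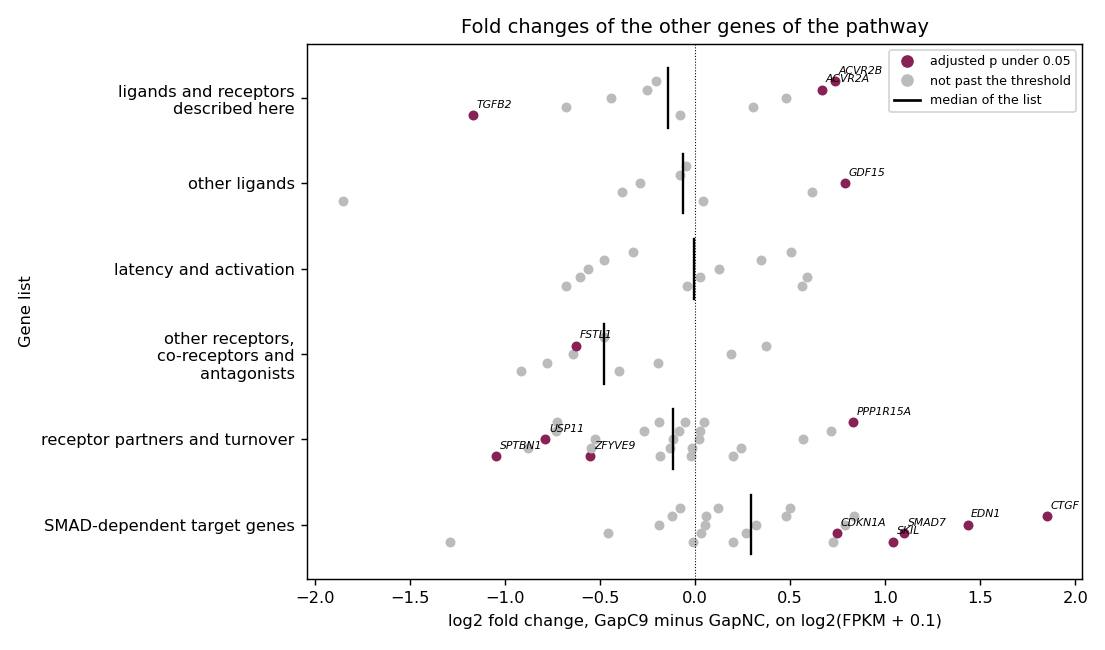
Log2 fold change (GapC9 minus GapNC, on log2(FPKM + 0.1)) of the genes tested, by list, except 1 SMAD-dependent target that is not reported here, with purple points past an adjusted p of 0.05, gray points not past it and black lines at the median of each list. The SMAD-dependent targets hold 5 named genes on the right and have a median of 0.29 over all 24 tested, and the other 4 lists have medians between −0.48 and −0.0092.

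Of the other ligands, 12 of 15 genes had a row and 8 of them were tested. GDF15, a stress-induced member of the family, shared a row with PGPEP1 and rose from 10.4 ± 1.63 to 18.0 ± 2.38 FPKM (log2 fold change 0.79, limma adjusted p = 0.0477). GDF11 was called lower by ratio and unadjusted p, at 2.22, 1.99 and 2.0 FPKM in GapNC and 0.345, 1.38 and 0.226 FPKM in GapC9 (log2 fold change −1.86, limma adjusted p = 0.105).

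On the list of latency and activation, none of 12 genes tested passed either rule, although 8 had an unadjusted p under 0.05, 4 in each direction (25.9% of all genes tested did). The most abundant were ITGB1, an integrin chain that can take part in releasing latent ligand, at 54.3 ± 8.66 and 79.9 ± 6.47 FPKM (limma adjusted p = 0.0681), and FURIN, the protease that cleaves the ligand precursors, at 20.3 and 16.4 FPKM. Of the other latent binding proteins, LTBP3 and LTBP4 were at 8.81 ± 2.27 and 5.67 ± 0.836 FPKM and at 8.89 ± 2.0 and 6.27 ± 0.706 FPKM (limma adjusted p = 0.139 and 0.171). LTBP2 did not fall, at 0.847 ± 0.132 and 0.861 ± 0.0945 FPKM (limma adjusted p = 0.94). LTBP2, LTBP3 and LTBP4 are named here beside LTBP1 after their values were seen.

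On the list of other receptors, co-receptors and antagonists, 9 of 18 genes were tested. FSTL1, a secreted follistatin-like protein, fell from 3.75 ± 0.122 to 2.39 ± 0.122 FPKM (log2 fold change −0.63, SE 0.10, limma adjusted p = 0.0311). ENG, the co-receptor endoglin, was at 0.192 and 0.0703 FPKM and was called lower by ratio and unadjusted p (limma adjusted p = 0.118). Its GapC9 mean lay below the filter of 0.1 FPKM, so ENG too was tested only through its GapNC values. The most abundant were the activin-binding protein FSTL3, at 12.1 and 9.24 FPKM, and the co-receptor CD109, at 7.88 and 4.99 FPKM (limma adjusted p = 0.0604).

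Of 25 receptor partners and turnover genes, all tested, 1 rose and 3 fell past the adjusted threshold, against 1.89% higher and 5.1% lower of all genes tested. SPTBN1, a spectrin that is an adaptor of SMAD3, fell from 13.6 ± 1.44 to 6.52 ± 0.392 FPKM (log2 fold change −1.05, SE 0.12, limma adjusted p = 0.0166). ZFYVE9, the SARA protein that presents SMADs to the receptor, fell from 6.06 ± 0.578 to 4.09 ± 0.0775 FPKM (limma adjusted p = 0.0454), and USP11, a deubiquitinase, fell from 30.3 ± 4.34 to 17.5 ± 2.41 FPKM (limma adjusted p = 0.0400). PPP1R15A, a phosphatase regulator bound by SMAD7, rose from 19.0 ± 0.581 to 34.1 ± 5.73 FPKM (limma adjusted p = 0.0314). STRAP, a receptor-associated protein at 80.1 and 79.1 FPKM, and FKBP1A, which binds type I receptors and shares a row with other genes, at 42.9 and 44.3 FPKM, were the most abundant.

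In the reported fit, 693 of the 1029 genes and loci called by ratio and unadjusted p were lower in the libraries labelled GapC9 and 336 were higher. After median scaling these numbers were 466 and 470, after quantile normalization 490 and 453, and after the GC correction 422 and 467. Median scaling moved the median log2 fold change over all genes from −0.076 to 0.028. TGFB2 (−1.10), LTBP1 (−0.58), ACVR2A (0.78) and ACVR2B (0.84) kept their direction in that fit, with limma adjusted p of 0.0572, 0.0774, 0.0340 and 0.0394, so TGFB2 no longer passed. After quantile normalization the adjusted p of TGFB2 was 0.0556. Among the pathway genes, FSTL1 (0.0522 and 0.0559) and ZFYVE9 (0.0927 and 0.0990) also missed the limma adjusted threshold after median scaling and after quantile normalization. After the GC correction TGFB2 was at −1.28, ACVR2A at 0.55 and ACVR2B at 0.77, with limma adjusted p of 0.0271, 0.0232 and 0.0259. The sign was also kept by every pathway gene called in the reported fit under each alternative.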

How the data were processed

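RNA-seq libraries of HCT-116 cells (3 GapNC, 3 GapC9) were grouped by their titles. The authors aligned reads and deposited FPKM values per gene from StringTie 1.3.0 (HISAT2 2.0 and Bowtie 0.12.2 are also named in the submitters' processing notes). The notes name the mouse build mm8, whereas the identifiers are human, so the build of the alignment is not known, and all coordinates come from GENCODE 29 of GRCh38. The table also holds annotation columns, and 0 columns of sample values were left unused.

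FPKM were used as deposited, as log2(FPKM + 0.1), for the 16028 of 27918 rows with a mean of at least 0.1 FPKM. The fit was limma 3.58.1 in R 4.3.3 (lmFit, eBayes with trend, all 6 libraries, Benjamini-Hochberg adjustment over all rows tested). A count test could not be run because FPKM hold no counts. The call rules were: an adjusted p under 0.05, and group means whose ratio was 2 or more, or 0.5 or less, with an unadjusted p under 0.05. GC content was known for 15909 of the rows tested (99.26%), those with a transcript in the annotation. Of these, only rows averaging 1 FPKM or more entered the GC trend. Correlations, sequence searches and figures were made in Python 3.11.15. The fit was tested on simulated data with known changes. The members and pathway lists were chosen with earlier results of these data known. Named were all 10 genes, every list gene called by either rule, the 2 most abundant genes of each list, and the 5 genes most correlated with TGFB2. Of the genes this rule names, 2 are counted in their lists but not reported here. Alternatives were other pseudocounts and filters, median scaling, quantile normalization, no trend, robust variances, a replicate block, a GC correction, each library left out, and the table's own pathway column.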

Additional observations from a re-analysis of the deposited data

How the results depend on the processing

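TGFB2, LTBP1, ACVR2A and ACVR2B kept their direction in every alternative in which they were tested. The sign of TGFB1 turned, to 0.032 after median scaling, 0.28 after the GC correction and 0.075 without GapNC replicate 1, on a log2 scale, with a range of −0.21 to 0.075 over the fits without a single library. The count of genes past the adjusted threshold, 3 in the reported fit, was 0 without a filter on low values, 5 after the GC correction (TGFB1 and LTBP1 were added), and 0 to 1 with a single library left out. Of all rows, 6.99% passed in the reported fit, 1.76% without the filter, 14.8% after the GC correction and 0.212% to 5.09% with a single library left out. With the filter at 1 FPKM the number called by ratio and unadjusted p was 0, since TGFB2 lies below that filter. TGFB2 had an adjusted p of 0.0538 with a pseudocount of 0.01, 0.0572 after median scaling and 0.0556 after quantile normalization, and ACVR2B one of 0.0525 without the trend. The number of list genes called by ratio and unadjusted p, 8 of 78 tested, was 6 to 10 with a single library left out. It was 4 of 67 tested for the genes of the table's own pathway column, against 6.42% of all rows. Of these 67 genes, 25 had a positive and 42 a negative log2 fold change, with a median of −0.083. By adjusted p, 3 of them were higher and 4 lower. Apart from the filter at 1 FPKM, where the construction shows it, the cause of each change was not tested. Over the members' 169 alternative values, 137 kept direction and side of the threshold, 27 lost the threshold, 2 gained it and 3 turned sign, of which 1 (TGFB1 after the GC correction) also passed the threshold.

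With a replicate block, 0 of the 10 genes and 0 of all 16028 rows passed the adjusted threshold, while the number called by ratio and unadjusted p stayed at 1. The labels do not say whether same-numbered libraries belong together. Deviations of same-numbered libraries correlated at 0.113, 0.0362 and 0.0332, against −0.119 to 0.0867 for the other pairings. GapNC replicates 1 and 2 correlated best with their own number, and GapNC replicate 3 did not. Whether same-numbered libraries were handled together was not tested. Without counts, the depth behind each value is only estimated.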
